A study of Mus musculus with 10 samples.

Results

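The Obox cluster is a run of oocyte-specific homeobox genes on mouse chromosome 7. It was taken as every 5 kb window that the deposited table assigns to Obox1, Obox2, Obox3, Obox5 or Obox6, together with the windows lying between the first and the last of these. This gave 98 adjoining windows, chr7:15350001-15840000 of GRCm38 (490 kb), out of 544879 windows in the table. Of the 98 windows, 47 were assigned to a member and 51 lay between. The table assigned 10 windows to Obox2, 33 to Obox3, 2 to Obox5 and 2 to Obox6. It assigned 0 windows to Obox1, whose RefSeq gene (chr7:15547257-15556846, plus strand) lies inside windows assigned to Obox3.

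H3K4me3 was profiled by ULI-nChIP-seq, native chromatin immunoprecipitation from small pools of cells, in germinal vesicle (GV) oocytes of 21-day-old C57BL6 females. Both genotypes carried Setd1b floxed/floxed alleles. The conditional knockout (cKO, N = 3) was Gdf9-Cre positive, and the wild type (WT, N = 3) was Gdf9-Cre negative. Each library came from a pool of approximately 200 oocytes, and 2 input libraries per genotype served as control. Cre driven by the Gdf9 promoter acts in oocytes from early folliculogenesis, so the groups compare oocytes that grew with and without SETD1B, in pools rather than in single animals. P-values measure the spread between these pools.

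OBOX proteins are homeodomain transcription factors of the paired-like type, a rodent-specific group related to CRX and OTX. Obox1, Obox2 and Obox5 are known as maternal genes, transcribed in the growing oocyte and stored as RNA, whereas Obox3 is known for transcription in the early embryo at zygotic genome activation. H3K4me3 is a histone mark of active promoters that in oocytes also forms broad domains away from them, and SETD1B is a methyltransferase that deposits it.

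Obox genes arose by repeated duplication, and the first question was which of them short reads can tell apart. The bases just upstream of the RefSeq start sites are shown for this reason (RefSeq, GRCm38.p6; 250 bases on the gene strand). The set of RefSeq promoter sequences used held 4 of the 5 members and had no entry for Obox6. For Obox1 (chr7:15547007-15547256, plus strand) and Obox2 (chr7:15388601-15388850, plus strand), capitals mark the longest run that the pair has in common, 153 bases without a mismatch:
Obox1: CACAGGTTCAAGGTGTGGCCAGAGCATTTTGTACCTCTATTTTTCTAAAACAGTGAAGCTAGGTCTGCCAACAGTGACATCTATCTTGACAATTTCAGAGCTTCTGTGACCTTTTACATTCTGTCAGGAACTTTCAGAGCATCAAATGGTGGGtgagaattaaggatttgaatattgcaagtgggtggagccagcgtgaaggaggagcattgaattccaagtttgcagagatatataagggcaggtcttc
Obox2: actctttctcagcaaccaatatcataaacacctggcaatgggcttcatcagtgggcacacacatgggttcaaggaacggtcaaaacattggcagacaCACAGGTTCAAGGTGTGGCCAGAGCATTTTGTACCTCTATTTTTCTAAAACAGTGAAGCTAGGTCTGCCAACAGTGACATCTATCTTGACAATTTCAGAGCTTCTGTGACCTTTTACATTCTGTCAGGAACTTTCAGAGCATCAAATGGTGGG
None of the positions in these stretches (0% for each gene) began a 75-base sequence, the length of the reads, that occurs once in the genome. The median number of copies was 2 for both, with a maximum of 3 for Obox1 and 23 for Obox2.

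For Obox3 (chr7:15639778-15640027, minus strand) and Obox5 (chr7:15750120-15750369, plus strand), capitals mark runs of at least 12 bases that Obox1, Obox3 and Obox5 all hold, 73 bases in each, the longest of 25:
Obox3: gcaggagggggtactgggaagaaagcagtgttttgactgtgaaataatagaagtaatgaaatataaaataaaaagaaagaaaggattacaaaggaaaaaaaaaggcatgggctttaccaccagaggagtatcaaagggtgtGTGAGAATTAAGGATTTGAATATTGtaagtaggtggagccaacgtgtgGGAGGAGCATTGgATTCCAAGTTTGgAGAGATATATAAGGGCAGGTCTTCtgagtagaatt
Obox5: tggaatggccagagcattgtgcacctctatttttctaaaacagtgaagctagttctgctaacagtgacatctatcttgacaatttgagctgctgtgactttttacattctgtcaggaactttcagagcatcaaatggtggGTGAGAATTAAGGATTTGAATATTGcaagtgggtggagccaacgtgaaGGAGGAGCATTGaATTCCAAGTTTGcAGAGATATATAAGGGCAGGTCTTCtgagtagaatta
These genes could be told apart better. The single-copy share of read-length sequences beginning in the stretch was 83.6% for Obox3 and 72.8% for Obox5. All 4 stretches held 1 CpG, and 18.8% of 32851 RefSeq promoter stretches of the same length held at most 1, with a median of 6. The letters TATAA, searched on both strands, occurred in 3 of the 4 (Obox1, Obox3 and Obox5) and in 22.8% of all stretches. TAATCC, searched on both strands and known as a site bound by CRX and OTX homeodomains, occurred in Obox3 alone among the 4 and in 6.25% of all stretches.

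Much of the cluster is repeated sequence. Over all 490000 positions of the cluster, 45.1% began a 75-base sequence found once in the genome, and 70.4% of the remaining positions had all their copies on the same chromosome within the wider Obox locus (chr7:14517971-15839679). By window the median share was 42.1%, against 99.3% in the 500 kb after the cluster and 49.5% in the 500 kb before it. The share was under 20% in 28 windows and at least 80% in 17.

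The input libraries, which carry no antibody selection, followed the same map. Relative to the mean window of the genome, the cluster received between 53.8% and 57.1% of the input reads in the 4 libraries, and the windows assigned to members between 39.8% and 47.0%. The 500 kb after the cluster received between 109% and 120.1%. Across the 98 windows, summed input reads and single-copy share had a Spearman rho of 0.96, a description of windows of the same libraries. The WT H3K4me3 value and the single-copy share had a rho of 0.73.

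**Figure D1:**
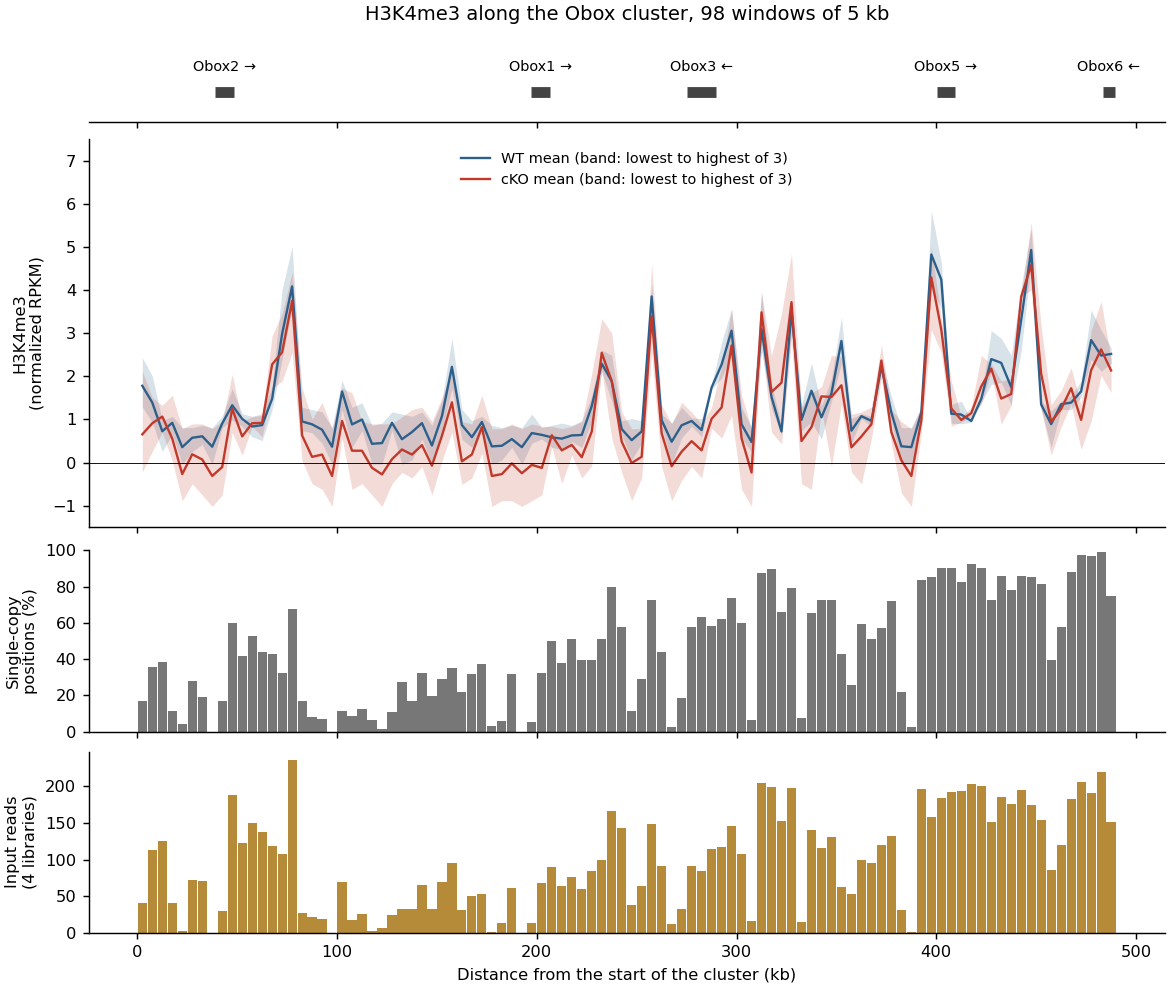
The map shows, from top to bottom, the RefSeq genes with arrows for their strand, H3K4me3 in normalized RPKM per 5 kb window, the percentage of single-copy positions and the summed reads of 4 input libraries, against distance in kb from the start of the cluster. Lines are means of 3 WT (blue) and 3 cKO (red) libraries and bands run from the lowest to the highest library; the tall H3K4me3 windows stand where single-copy share and input reads are also high, and the bands of the genotypes overlap along most of the cluster.

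A second property of the deposited values bears on every comparison in the cluster. The authors shifted and scaled each H3K4me3 library so that its 40th percentile (1.23 normalized RPKM) and its 99th percentile (6.77 normalized RPKM) match the others, so a window without a single read does not have the value 0. For cKO replicates 1, 3 and 4 a window without reads has the value 0.785, −1.02 and −0.700 normalized RPKM. For WT replicates 1, 2 and 4 it has the value 0.810, −0.0359 and 0.300. A window that no read can reach therefore shows a cKO minus WT difference of −0.668 normalized RPKM by the arithmetic of the scaling alone. The libraries held from 10856015 to 32775874 H3K4me3 reads in windows, with a median of 11 to 47 reads per window.

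The maternal genes Obox1 and Obox2 had too few reads at their start sites to be measured. The Obox2 start site window (chr7:15385001-15390000) was 0% single-copy and held 0 reads in the 3 cKO libraries, in WT replicates 1 and 2 and in the 4 input libraries, and 1 read in WT replicate 4. A count of 0 allows up to 3 reads, or 0.0559 reads per 1e+06 (RPM) over the cKO libraries and 0.0313 over the input, against 1.84 for the mean window. These limits cover counting error, and the 0 in the input leaves the H3K4me3 of this window unread. The deposited values of this window, 0.785, −1.02 and −0.700 normalized RPKM in cKO and 0.810, −0.0359 and 0.330 normalized RPKM in WT, were those at 0 reads or 1 step above.

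The Obox1 start site window (chr7:15545001-15550000) was 5.16% single-copy and held 13 input reads in all. The cKO libraries (replicates 1, 3 and 4) had 2, 1 and 11 H3K4me3 reads there, and the WT libraries (replicates 1, 2 and 4) had 6, 5 and 6. In normalized RPKM these were 0.896, −0.884 and −0.170 in cKO and 1.12, 0.451 and 0.479 in WT. The groups overlapped, and the difference of −0.737 normalized RPKM (SE 0.473) lay close to that of windows without reads (limma adjusted p = 0.491). Of the protein-coding start site windows of the genome (20269), 4.43% had a lower WT value than that of Obox1 and 2.00% a lower value than that of Obox2.

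Obox5, the third of the maternal genes, had the highest H3K4me3 value among the 3 members whose start site windows could be read (Obox3, Obox5 and Obox6). Its start site window (chr7:15750001-15755000) was 90.6% single-copy and held 184 input reads, 95.3% of the median window. From here on, values are given in the order of replicates 1, 3 and 4 for cKO and 1, 2 and 4 for WT. The cKO values were 3.34, 2.55 and 3.35, and the WT values 4.52, 4.63 and 3.57 normalized RPKM. On this scale all cKO libraries lay below all WT libraries. The means were 3.08 ± 0.459 in cKO and 4.24 ± 0.587 in WT (normalized RPKM, SD, n = 3), the largest decrease of the cluster at −1.16 (SE 0.415), and the difference did not pass the test across all windows (limma adjusted p = 0.217). In RPM of whole reads the window had 3.60, 2.27 and 2.89 in cKO and 5.43, 4.42 and 3.33 in WT, where cKO replicate 1 lay above WT replicate 4, and the log2 fold change was −0.62 (edgeR adjusted p = 0.560). Adjusted p ranged from 0.0851 to 0.560 over the 14 fits of this window.

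The WT value of the Obox5 window exceeded that of 89.5% of all windows and of 60.0% of protein-coding start site windows, and the cKO mean exceeded the cKO value of 34.4% of the latter. The start site lies 369 bases from the upstream edge of its window. The neighbouring upstream window (chr7:15745001-15750000, named after its values were seen) held 5.0, 3.08 and 4.80 normalized RPKM in cKO and 5.83, 4.05 and 4.59 in WT. These groups overlapped, with a difference of −0.532 (SE 0.596, limma adjusted p = 0.657). Averaged over both windows, the difference was −0.847 normalized RPKM (exact permutation test, two-sided, p = 0.2, where 0.1 is the smallest that 3 libraries against 3 allow). The other window assigned to Obox5 had 1.26 in cKO and 1.13 in WT.

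Obox3, the gene of the early embryo, had a modest level at its start site. Its window (chr7:15635001-15640000) was 58.5% single-copy, with 114 input reads. The cKO values were 1.28, 0.965 and 0.795, and the WT values 1.70, 1.81 and 1.71 normalized RPKM. The cKO libraries again lay below all WT libraries, with means of 1.01 ± 0.249 and 1.74 ± 0.0628 (SD, n = 3). The difference of −0.726 (SE 0.329) did not pass the test (limma adjusted p = 0.339; edgeR log2 fold change −0.63, adjusted p = 0.597).

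The Obox3 start site lies 223 bases from the upstream edge of its window, and the next window upstream had 1.28 in cKO and 2.27 in WT (difference −0.994, SE 0.471, limma adjusted p = 0.363). Over both windows the difference was −0.860 normalized RPKM, with the groups apart (exact permutation p = 0.1, the smallest possible). The 33 windows assigned to Obox3 follow a long gene model in the GENCODE M21 annotation (160.1 kb, against 14472 bases in RefSeq). Their WT means ran from 0.358 to 3.85 normalized RPKM. The highest, chr7:15605001-15610000, was not the start site window and had 3.39 in cKO and 3.85 in WT. Of these 33 windows, 30 had a lower mean in cKO and 3 a higher mean by the deposited values. In whole reads, 17 of the 30 windows tested were higher and 13 lower, so the excess of decreases did not hold on that scale.

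Obox6, at the far end of the cluster, encodes a homeodomain protein known for promoting reprogramming to pluripotency. Its start site window (chr7:15835001-15840000) was 74.9% single-copy, with 152 input reads. The cKO values were 2.39, 1.62 and 2.39, and the WT values 2.59, 2.30 and 2.67 normalized RPKM. The groups overlapped, and the difference was −0.384 (SE 0.361, limma adjusted p = 0.590; edgeR log2 fold change −0.28, adjusted p = 0.767). The start site lies 321 bases from the window edge, and the upstream neighbour, just outside the cluster, had 1.88 in cKO and 2.99 in WT (limma adjusted p = 0.335). Both windows together differed by −0.747 (exact permutation p = 0.1). The other Obox6 window, 99.3% single-copy, had 2.62 in cKO and 2.48 in WT.

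The order of the WT levels at the start sites was Obox5 (4.24), Obox6 (2.52), Obox3 (1.74), Obox1 (0.685) and Obox2 (0.368 normalized RPKM), all over windows of 5 kb. The 3 libraries of Obox5 lay above those of Obox6, these above those of Obox3, and these above those of Obox1. Obox1 and Obox2 overlapped across libraries, although within each WT library the value of Obox1 was the higher. The order was also that of the input reads in the windows (184, 152, 114, 13 and 0). As a ratio of H3K4me3 RPM to input RPM, the WT level was 2.71 for Obox1, 2.29 for Obox5, 1.52 for Obox6 and 1.26 for Obox3, so that Obox1 stood first on that scale, on 13 input reads, and Obox2, without input reads, had no ratio.

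**Figure D2:**
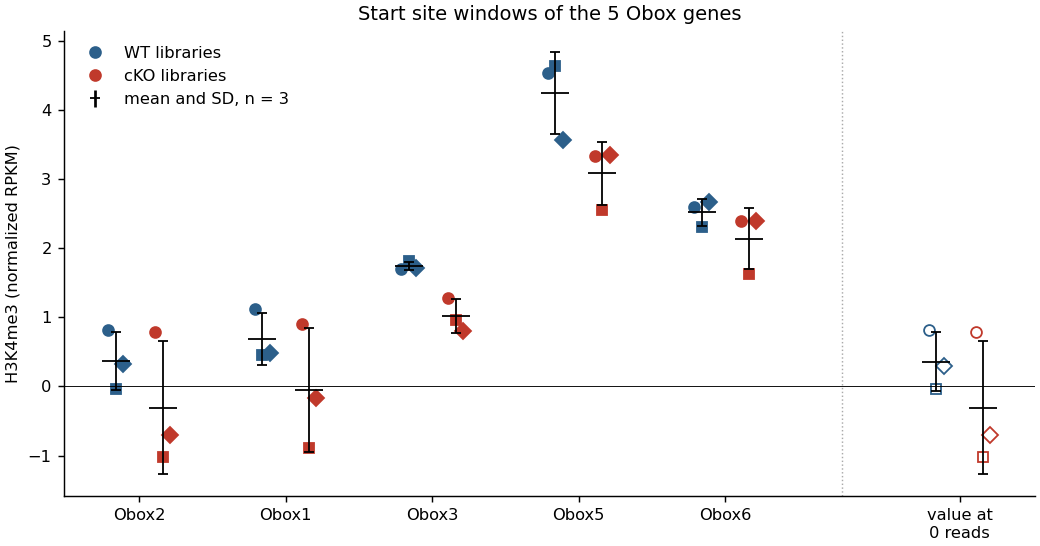
H3K4me3 in normalized RPKM (vertical axis) in the 5 kb start site window of each member, in order along the chromosome, with the value at 0 reads of each library as open symbols at the right. Each point is 1 library (circle, square and diamond stand for WT replicates 1, 2 and 4 in blue and cKO replicates 1, 3 and 4 in red) and bars are mean and SD (n = 3); Obox2 matches the values at 0 reads, and Obox3 and Obox5 have every cKO point below every WT point.

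Across the whole cluster, limma called no window changed between the genotypes on the deposited values, and edgeR on whole reads called 1. By limma 0 of the 98 windows passed an adjusted p under 0.05, against 1.02% of all windows in the table, and 2 had an unadjusted p under 0.05, against 14.9%. Without cKO replicate 1, whose value at 0 reads was far above those of the other cKO libraries, 1 window (assigned to Obox2, lower in cKO) passed the adjusted threshold and 40 of the 98 windows had an unadjusted p under 0.05, against 171373 of 544879 windows. The window called there (chr7:15390001-15395000) was 17.0% single-copy, with 30 input reads, and differed by −1.54 normalized RPKM. In the same fit the nearly empty Obox2 start site window differed by −1.23. In 3 windows of the cluster the cKO libraries were all below the WT libraries, against 9.95% of all windows. In 1 window they were all above, against 9.88%. By edgeR on whole reads, 1 of 91 windows tested was called, against 2.29% of the 503726 windows tested in all, and 6 had an unadjusted p under 0.05, against 13.2%.

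That window (chr7:15670001-15675000), between Obox3 and Obox5, showed the largest increase of the cluster in normalized RPKM. The cKO values were 1.67, 0.437 and 3.45, and the WT values 0.863, 0.645 and 0.659 normalized RPKM. On this scale cKO replicate 4 was highest and cKO replicate 3 lay below all WT libraries. It held 16, 11 and 86 reads in cKO against 1, 7 and 12 in WT, and in RPM (1.25, 0.924 and 2.96 against 0.0764, 0.645 and 0.366) all cKO libraries lay above all WT libraries. The log2 fold change was 2.25 (edgeR adjusted p = 0.0129), while limma gave a difference of 1.13 normalized RPKM (SE 0.634, adjusted p = 0.455), or 1.80 with the replicate number as a block (adjusted p = 0.00593). Without cKO replicate 4 the log2 fold change was 1.62 (edgeR adjusted p = 0.656). Without WT replicate 1 and without WT replicate 4, edgeR gave an adjusted p of 0.112 and 0.138. The edgeR call was kept without cKO replicate 1 (adjusted p = 0.00206), cKO replicate 3 (0.00815) or WT replicate 2 (0.00672). The window contains no annotated gene start, was 65.9% single-copy and had 57 CpG. Of its bases, 92.8% were masked as repeats in the genome sequence, against a median of 66.8% over the cluster windows.

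The highest H3K4me3 values stood in a few windows that mostly held no annotated gene start, as was true of most windows of the cluster. A WT mean of 3.06 normalized RPKM exceeded that of 78.6% of all windows. A WT mean of at least 3 normalized RPKM was reached in 9 of the 98 windows, and 1 of these 9, that of Obox5, held an annotated gene start. Another of the 9 was its upstream neighbour (4.82 in WT), which ends 369 bases from the Obox5 start. The highest of the 9 (chr7:15795001-15800000) lay between Obox5 and Obox6, with values of 4.17, 4.00 and 5.57 in cKO and 4.63, 4.73 and 5.43 in WT. The groups overlapped (difference −0.349, SE 0.470, limma adjusted p = 0.719). A window between Obox2 and Obox1 (chr7:15425001-15430000, named after its values were seen) reached 4.08 in WT and 3.75 in cKO. The 9 windows had a single-copy share of at least 67.9%. In 6 of them the cKO mean was lower and in 3 higher, with differences from −1.16 to 0.533; choosing windows by a high WT mean favours decreases, so nothing is read from this count. Among the 71 cluster windows with at least 40 input reads, the number of CpG and the WT level relative to input had a Spearman rho of 0.12, a description only.

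By mean value, cKO was lower than WT in 77 of the 98 windows and higher in 21, with a median difference of −0.455 normalized RPKM against −0.103 over all windows. The size of the difference changed along with the share of single-copy sequence. In the 33 windows with the lowest share (0% to 27.7%), all 33 were lower in cKO, with a median difference of −0.611 normalized RPKM, near the −0.668 of windows without reads. In the 32 windows of the middle range (29.1% to 59.9%) 24 were lower and 8 higher, with a median of −0.364. In the 33 windows of the highest range (59.9% to 99.3%) 20 were lower and 13 higher, with a median of −0.159. In whole reads the median log2 fold changes of these ranges were −0.05, 0.22 and 0.03, and over the cluster 50 windows were higher and 41 lower, with a median of 0.07 against 0.09 over all windows tested.

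**Figure D3:**
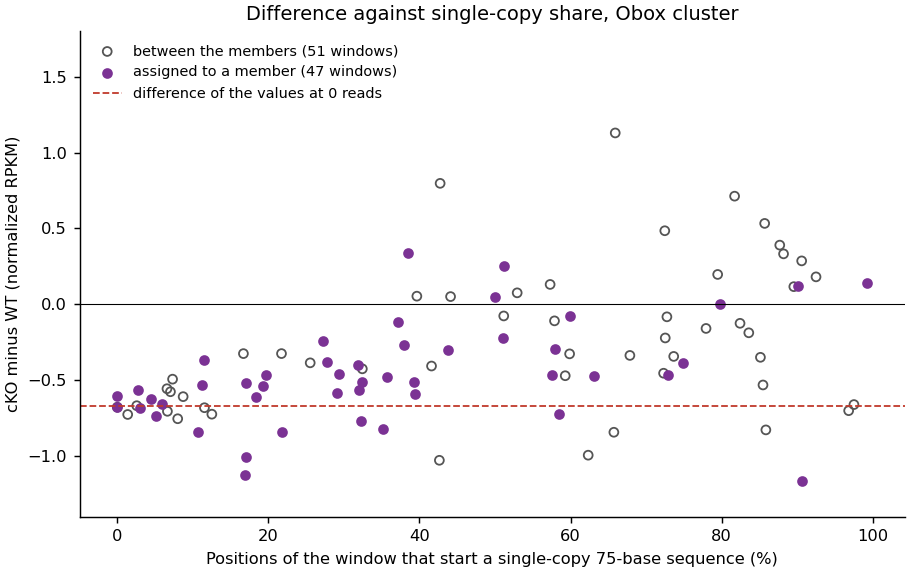
cKO minus WT difference in normalized RPKM (vertical axis) of each of the 98 cluster windows against the percentage of its positions that start a single-copy 75-base sequence (horizontal axis). Filled points are the 47 windows assigned to a member and open points the 51 between; at low single-copy share the points gather around the dashed line at −0.668, the difference of the values at 0 reads, and at high share they spread on both sides of 0.

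Averaged over the 98 windows, the cKO libraries had 1.60, 0.458 and 1.00 and the WT libraries 1.51, 1.18 and 1.41 normalized RPKM. The highest and the lowest library were both cKO. The difference was −0.348 (cKO 1.02 ± 0.570, WT 1.37 ± 0.170, SD, n = 3; exact permutation test, two-sided, p = 0.5). Without cKO replicate 1 it was −0.638 and without cKO replicate 3 it was −0.0679, so its size rested on these libraries. In RPM the cluster received 112, 91.9 and 119 in cKO and 100.5, 113 and 111 in WT, a log2 difference of −0.01 (exact permutation p = 0.9). Over the 17 windows with at least 80% single-copy positions the difference was −0.102 normalized RPKM (exact permutation p = 0.8).

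The 47 windows assigned to members had means of 1.33, 0.0658 and 0.479 in cKO and of 1.32, 0.893 and 1.05 in WT, with overlapping groups. The difference was −0.463 (exact permutation p = 0.4), and it was −0.814 without cKO replicate 1 and −0.184 without cKO replicate 3. Of these windows, 41 had a lower mean in cKO and 6 a higher mean, whereas in whole reads 24 of the 42 tested were higher and 18 lower (median log2 fold change 0.10). Over the 6 libraries the member mean and the value at 0 reads had a Pearson r of 0.99, a description with no test. The genes whose start site windows were most like the member mean over the 6 libraries were Gm23313, Defa-ps18, 9930111J21Rik1, Ireb2 and Gm14219, each with a Pearson r of 1.00 to 2 decimals. Of these, 4 had between 12 and 30 reads in the 6 libraries together, and Ireb2 had 655.

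Other oocyte gene arrays and the flanks were used to see whether the cluster stood apart. In the 132 windows of the oocyte Nlrp paralogs the difference was −0.257 normalized RPKM, in the 38 windows of the oogenesin and PRAME family −0.384 and in the 65 windows of the oocyte Fbxw genes −0.279, each with the genotypes apart (exact permutation p = 0.1, the smallest possible). The mean difference of the cluster (−0.348) had overlapping groups. Its median difference over windows was −0.455, against −0.111, −0.307 and −0.273 in the arrays. Limma called 4 of the 132 Nlrp windows, 2 of the 38 of oogenesin and PRAME and 0 of the 65 of Fbxw, and edgeR called 0, 2 of 37 tested and 0. The shares over all windows were 1.02% by limma and 2.29% by edgeR. The cluster minus array contrast, taken within each library, differed between cKO and WT by −0.0910 normalized RPKM for Nlrp (p = 0.8), by 0.0351 for oogenesin and PRAME (p = 1) and by −0.0690 for Fbxw (p = 0.9), by exact permutation tests, with overlapping groups in each case. In whole reads these contrasts were 0.10, 0.25 and 0.16 on the log2 scale (exact permutation p = 0.9, 0.2 and 0.7), of the opposite sign for Nlrp and Fbxw. In whole reads the Nlrp paralogs had 88 windows higher and 44 lower in cKO, the oogenesin and PRAME family 16 higher and 21 lower of 37 tested, and the Fbxw genes 33 higher and 32 lower, so the lower deposited values of Nlrp were not seen on that scale. These arrays had median single-copy shares of 97.1%, 94.8% and 96.4%.

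The 500 kb after the cluster, which holds Crx, Crxos and other genes, showed 3.20 in cKO and 3.14 in WT (difference 0.0590, exact permutation p = 0.8). The cluster lay 1.78 normalized RPKM below it in WT and 2.18 below it in cKO (difference −0.407, exact permutation p = 0.5), and by reads per window the contrast differed by 0.08 on the log2 scale (exact permutation p = 0.7). The 500 kb before the cluster, largely an array of Obox4 pseudogenes, had 1.66, 0.544 and 0.936 in cKO and 1.64, 1.31 and 1.65 in WT, with overlapping groups (difference −0.487, exact permutation p = 0.4). Relative to it the cluster was higher in cKO by 0.138 normalized RPKM and by 0.18 on the log2 scale of reads (exact permutation p = 0.1 for each, the smallest possible).

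**Figure D4:**
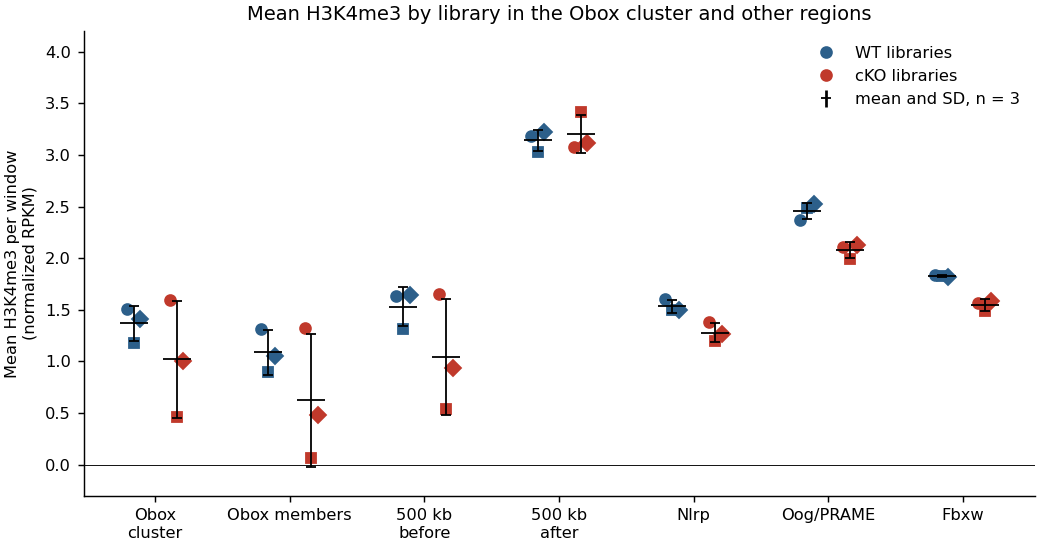
Mean H3K4me3 per window in normalized RPKM (vertical axis) of each library in the Obox cluster, in the windows assigned to its members, in the 500 kb on either side and in 3 other oocyte gene arrays. Each point is 1 library (symbols as replicates in order, WT blue, cKO red) and bars are mean and SD (n = 3); the cKO libraries are spread from 0.458 to 1.60 in the Obox cluster and from 0.544 to 1.66 in the 500 kb before it, and lie closer together in the arrays, which are mostly single-copy.

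The H3K4me3 window at the start of Setd1b fell from 7.11 ± 0.861 in WT to 4.36 ± 0.385 normalized RPKM in cKO (SD, n = 3; limma adjusted p = 0.0332; edgeR adjusted p = 0.446), which does not test the deletion itself. H3K4me3 was also read at the start site windows of 11 oocyte genes, all 11 of which were above the 40th percentile in WT. So were 6 of the 8 granulosa cell genes below and 265997 of all 544879 windows, so this level does not tell the cell types apart. The summed value of the 11 oocyte genes was 56.2 to 59.3 in cKO and 64.7 to 73.3 in WT. In RPM it was 42.8 to 71.6 and 62.5 to 94.0, so that the groups overlapped in whole reads. By edgeR 10 of the 11 were lower and 1 higher. In normalized RPKM, in 9 of the 11 the cKO mean was lower and in 2 higher, with differences from −2.65 to 3.24. The largest increase was that of Gdf9 (limma adjusted p = 0.0598), and the lowest limma adjusted p, that of another gene, was 0.0522. Gdf9 is also the gene whose promoter drives Cre, in cKO alone, and the part of the transgene in this value was not tested. By limma 0 of the 11 were called (8 at an unadjusted p under 0.05) and by edgeR 0 (0 at an unadjusted p under 0.05), against 1.02% and 14.9% of all windows by limma and 2.29% and 13.2% by edgeR (adjusted and unadjusted). For 8 granulosa cell genes the sum was 34.3 to 34.9 in cKO and 25.0 to 26.4 in WT, and in RPM 27.4 to 39.6 and 23.9 to 29.1, again with overlap. All 8 had a higher mean in cKO in normalized RPKM, and in whole reads 6 were higher and 2 lower. By limma 1 of the 8 was called, the granulosa transcription factor Foxl2 (higher by 2.85 normalized RPKM, adjusted p = 0.0415), with 3 at an unadjusted p under 0.05, and edgeR called 0, with 1 at an unadjusted p under 0.05, beside the same shares of all windows. No marker of either list was without reads, and their part in the Obox values was not tested. In pools, fewer marked oocytes and less mark per oocyte cannot be told apart.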

How the data were processed

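The authors trimmed the reads (Trim Galore 0.4.2), mapped them with Bowtie2 2.2.9 to GRCm38, discarded poorly placed mappings and counted reads in windows of 5 kb with SeqMonk. As deposited, H3K4me3 is an enrichment-normalized RPKM, a score on a linear scale. As deposited, input is a signal, reads per window scaled to library size. Discarding such mappings takes out reads that fit several copies, which bears on duplicated genes. Every value was a whole number of equal steps above a library's value at 0 reads (100% within 0.001 of a read), which gave whole reads. Depth was 10856015 to 32775874 reads in windows for H3K4me3 and 20756128 to 26566505 for input.

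Genotypes came from the sample labels; the study's methods also name a WT genotype with Cre, whereas the labels give all WT as Cre negative. The main test, on all 544879 windows, was that of limma 3.58.1 (R 4.3.3; two-sided, Benjamini-Hochberg, no intensity trend, no replicate block, adjusted p under 0.05). edgeR 4.0.16 (quasi-likelihood, TMM, at least 10 reads per window) was run on the whole reads. Both were tested on simulated data. Single values per library were compared with exact permutation tests. A window was assigned to a start site from RefSeq (members) or GENCODE M21 (other genes). Single-copy share was the percentage of positions at which the 75-base sequence occurs once on either strand of the GRCm38 chromosomes. The 21 chromosome ends matched the table. Named windows were the start site windows of members, those called, and those with the largest increase or decrease and highest or lowest WT mean; up to 3 genes per list with the lowest adjusted p were named outside the cluster. Members and lists were chosen with earlier results of these data known. Alternatives were other scales, a trend, quantile normalization, a filter, the block and leaving out libraries; chosen after seeing the data were edgeR without each library and the average with the upstream window. Permutations were run in numpy 2.4.6, and figures drawn in matplotlib 3.10.9.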

Additional observations from a re-analysis of the deposited data

How the results depend on the processing

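The call of 0 windows in the cluster held under both log2 scales, the intensity trend, quantile normalization, a mean of at least 1 and an adjusted p under 0.01. It became 1 window with edgeR on whole reads and 1 with the replicate block, both chr7:15670001-15675000. Leaving out libraries gave 0 to 1 windows by limma (1 without cKO replicate 1, assigned to Obox2, so the count over member windows also ranged from 0 to 1) and 0 to 3 by edgeR. Over the whole table, 5539 windows were called, of which 3066 were higher in cKO. The count was 0 with log2(value + 1), 0 with log2(value + 0.1), 19492 with an intensity trend, 1 with quantile normalization, 11514 with edgeR, 33433 with the replicate block and 0 at an adjusted p under 0.01, and it ranged from 0 to 17979 when 1 library was left out (17979 without cKO replicate 1, and 0 without WT replicate 2, WT replicate 4 or cKO replicate 4). The lower cKO mean over the cluster was not seen in whole reads, where the difference was −0.01 on the log2 scale of RPM (−0.06 for the member mean). Under the other alternatives it stayed below 0, from −0.638 to −0.0679 when 1 library was left out, as did the member mean, from −0.814 to −0.184. With the replicate block, taking numbers 1 and 4, these were −0.161 and −0.281. Of the shared numbers, the deviations of the libraries numbered 1 correlated at 0.319 across windows, the highest of any pair, and those numbered 4 at 0.0190. Pairs of unlike number ran from −0.227 to 0.133. The libraries numbered 1 also had near values at 0 reads (0.785 in cKO and 0.810 in WT). Whether a shared number marks a shared batch was not tested, and the main test took no pairing. Input in the cluster relative to the mean window (55.3%) was 43.1% over member windows, 46.7% by the median and 57.1% in cKO input replicate 1 alone. Of 3 windows tied at the lowest WT mean, with 0 reads in WT, the first (chr7:15370001-15375000) changed from −0.624 to 0.0214 with quantile normalization. Depth limits what could be seen: 19 of the 98 windows had 0 reads in at least 1 H3K4me3 library, and 7 had fewer than 10 reads in all 6 together.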

Other observations

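The annotation lists 50 further Obox loci, nearly all pseudogenes, each with a start site window of its own. Of these, 10 lie inside the cluster, and Obox3-ps8 and Obox6-ps1 lie on chromosome 17. None of the 50 was called by limma (0 at an unadjusted p under 0.05) or by edgeR (0 at an unadjusted p under 0.05), against 1.02% of all windows by limma and 14.9% at its unadjusted p, and 2.29% by edgeR and 13.2% at its unadjusted p. Their WT means ran from 0.358 to 5.56 normalized RPKM, with a median single-copy share of 51.5%. By the deposited values 38 were lower in cKO and 12 higher (median −0.374), and in whole reads 21 were lower and 25 higher (median log2 fold change 0.07). The lowest adjusted p outside the cluster were those of Obox4-ps6 (−0.823 normalized RPKM, limma adjusted p = 0.364) and Obox4-ps25 (0.571, adjusted p = 0.486), followed by several loci tied at 0.491. The genes Obox7 and Obox8, which lie apart from the cluster on the same chromosome, had differences of −0.390 (adjusted p = 0.841) and −0.0862 (adjusted p = 0.944).

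Of 13 homeobox genes related to Obox or known from oocytes, 12 had a start site window and 0 were called by limma (2 at an unadjusted p under 0.05) or by edgeR (0 at an unadjusted p under 0.05), against 1.02% of all windows by limma, 14.9% at its unadjusted p, 2.29% by edgeR and 13.2% at its unadjusted p. Their median was 5.61 normalized RPKM in WT and 5.61 in cKO. Pou5f1, a pluripotency factor, had 6.05 in cKO and 7.44 in WT (limma adjusted p = 0.275), and Otx2, a relative of OBOX, had 2.37 and 1.52 (adjusted p = 0.291). Crxos, a homeobox gene in the 500 kb after Obox6, had 3.57 and 4.74 (adjusted p = 0.382).

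Among 18 genes known for transcription at the 2-cell stage, 0 were called by limma (2 at an unadjusted p under 0.05) or by edgeR (2 at an unadjusted p under 0.05), against the same shares of 1.02%, 14.9%, 2.29% and 13.2% of all windows. Usp17la had 2.76 in cKO and 3.83 in WT (limma adjusted p = 0.212), Zscan4d had 2.74 and 1.78 (adjusted p = 0.273), and Zscan4a had 0.869 and 1.58 (adjusted p = 0.383). Of the 18, 13 were lower in cKO and 5 higher by the deposited values, with a median of −0.495 normalized RPKM. In whole reads, 12 were lower and 6 higher.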
